A study of Mus musculus with 10 samples.

Results

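The comparison described here is the response of the rescue-labelled fibroblast line to a mild heat shock, called preshock. Its members are 4 of the 10 arrays of the series and were chosen by title. They are the 2 arrays of preshocked MEF(+/+) cells, numbered 31 and 43, and the 2 arrays of unheated MEF(+/+) control cells, numbered 32 and 44. MEF stands for mouse embryonic fibroblast, and the design text calls the (+/+) line hsp70 rescue cells. The preshocked cells were heated at 43 °C for 30 min, 20 h after plating, and harvested after 3 h of recovery. The unheated cells stayed in the incubator and were harvested 23 h after plating. The other line, hsp70 (-/-) knockout cells, received the same treatments and gave 6 arrays (KO-labelled here). They are compared with the rescue-labelled arrays below, and they share the normalization, the filter on dim genes and the estimate of spread. The RNA of each array came from the pooled lysates of 144 wells, and the labels do not state that the arrays of a group were separate cultures. The p-values therefore measure the spread between arrays within the groups of both lines, which may be technical. How the rescue line was made, and whether it is a single clone, is not stated in the labels. The title of the series names thermotolerance, the resistance to a second heat exposure that a mild first one gives, as its subject.

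Heat unfolds proteins, which draws chaperones away from heat shock factor 1 (HSF1). The freed factor binds heat shock elements, inverted repeats of the unit GAA, and switches on chaperone genes. Hsp70 proteins hold unfolded chains with the help of J-domain cochaperones, which deliver substrates and start ATP hydrolysis, and of nucleotide exchange factors such as Hsp110 and BAG proteins, which release them. Heat also activates stress kinases that induce immediate early genes, among them those of the AP-1 transcription factors, which bind the sequence TGANTCA.

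The arrays held 45101 probe sets, each a set of short probes for one transcript region, and 10915 genes were bright enough to be tested. Median deposited intensities of the 4 arrays lay between 50.7 and 53.3. The correlations of normalized log2 values between them, computed for every pair but 32 with 43, lay between 0.963 and 0.975. The 3' minus 5' signals of Gapdh, a measure of RNA integrity, were -0.20 and -0.33 log2 in the preshocked arrays 31 and 43 and -0.21 and -0.29 in the unheated arrays 32 and 44, so the measure followed the pair and not the treatment. The 12 fibroblast markers summed to 110380 and 102210 in preshocked and 99897 and 101630 in unheated arrays, with 0 of the 10 tested called. Their sums were set by Vim, S100a4, Col1a2 and Fn1, while Thy1, Dcn, Lum and Postn were low. Marker sums of other cell types were at most 1333 for epithelial, leukocyte, endothelial, adipocyte and neural lists and between 5465 and 7414 for muscle, nearly all of it Tnnt2, again with 0 members called. In bulk samples fewer cells of a type and less RNA per cell cannot be told apart.

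Preshock raised 30 genes and lowered 9 in the rescue-labelled arrays (limma, Benjamini-Hochberg adjusted p under 0.05, which is what called means below). The 39 are 0.357% of the 10915 genes tested, with 0.275% higher and 0.0825% lower. They were led by chaperones and their partners, by stress transcription factors and by a few genes that fibroblasts hardly expressed before heat. Every called gene changed at least 2-fold and had both preshocked arrays on one side of both unheated arrays, as did 38.7% of all genes. The smallest called change was 1.08 log2 (Siah2). Among all genes 431 differed by at least 1 log2, and 913 (8.36%) had an unadjusted p under 0.05, of which 381 were higher and 532 lower. The typical standard error of a change was 0.26 log2. An exact permutation of 2 against 2 arrays could not give a two-sided p below 0.333.

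The number called rested on the spread shared with the KO-labelled arrays and on each of the 4 arrays. Without array 31, 43, 44 or 32 the fit called 10, 14, 10 and 11 genes. A fit of the 4 arrays alone called 1, Cpn1. Hspa1b, Atf3, Cpn1, Dnajb1, Dnajb4, Zfand2a and Ifitm10 stayed called in each of the 4 fits without an array, and the other 32 lost their call in at least 1 of them. With medians centred in place of quantile normalization 7 genes were higher and 0 lower. With the consecutive numbers 31/32 and 43/44 as a pairing block, 164 genes were called (1.5%), 80 higher (0.733%) and 84 lower (0.77%), so 48.8% of the calls were rises, against 76.9% without the block. That fit held 32 of the 39 genes and lost Fosb, Maff, Zglp1, Cdkn1a, L3mbtl3, Pgf and Kif24.

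**Figure D1:**
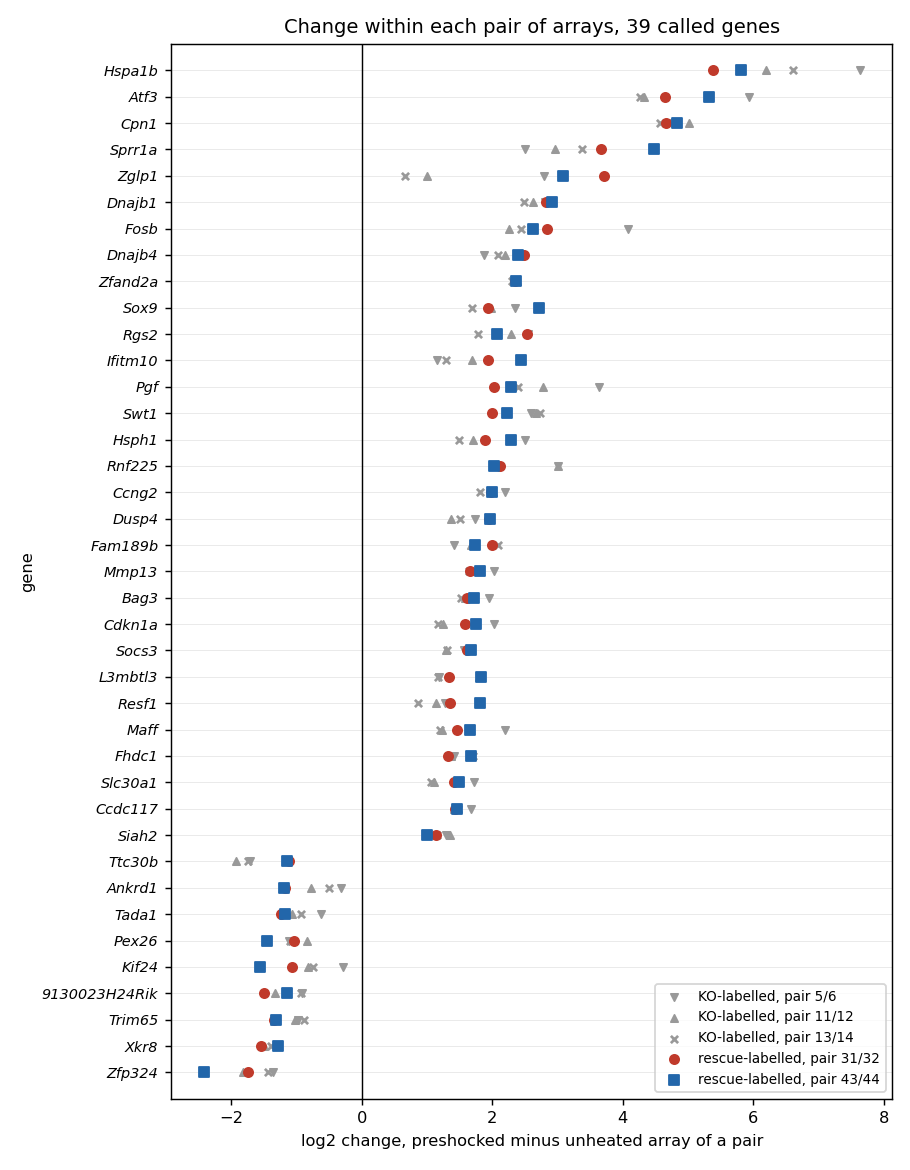
Log2 change of each of the 39 called genes (vertical axis) within each pair of arrays (horizontal axis, preshocked minus unheated). Red circles and blue squares are the rescue-labelled pairs 31/32 and 43/44, and grey symbols are the 3 KO-labelled pairs. Both rescue-labelled symbols lie on the same side of 0 for every gene, from -2.42 for Zfp324 to 5.81 for Hspa1b.

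Both pairs gave changes of similar size for most of these genes. The fit favours genes whose arrays agree within a group, so this closeness follows in part from how the 39 were picked. The change differed between pairs by a median of 0.21 log2 and at most by 0.80 (Sprr1a), and 11 of the 39 genes changed more in pair 31/32. Across all 10915 genes, which are not independent replicates, the changes of both pairs had a Pearson correlation of 0.452 and a Spearman correlation of 0.497. Their SDs were 0.55 and 0.492 log2. The median change of all genes was -0.03 log2, and 55.5% of genes lay below 0.

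**Figure D2:**
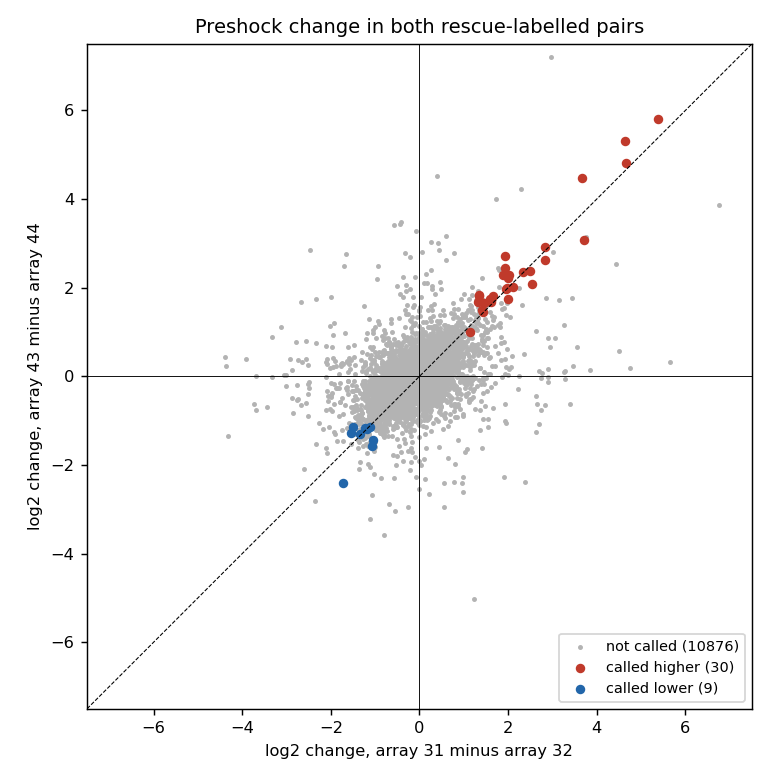
Log2 change in array 31 minus 32 (horizontal axis) against array 43 minus 44 (vertical axis) for the 10915 genes tested. Grey points are genes not called, red points the 30 called higher and blue points the 9 called lower. The called genes follow the dashed line of equal change, while over all genes the Pearson correlation is 0.452. The fit favours genes whose arrays agree within a group, so the called genes were in part picked for this.

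A gene of Hsp70, the chaperone named in the labels of both lines, changed most. Hspa1b (gene 15511, chromosome 17, 34956429 to 34959238 of GRCm38.p6) encodes stress-inducible Hsp70. Its tested probe set read 37506 in array 31 and 24677 in array 43, against 675 in array 32 and 465 in array 44. The preshocked and unheated readings were far apart, and a low level was present without heat. The change was 5.60 ± 0.46 log2 (SE from the spread shared by all 10 arrays, n = 2 and 2, limma adjusted p = 0.00253). The other probe sets of the gene changed by 6.95 ± 0.40 and 6.55 ± 0.41. Hspa1a, its neighbour with a nearly identical coding sequence, had a probe set that read 9.72 and 6.57 in preshocked and 10.2 and 25.8 in unheated arrays. Its change of -1.05 ± 0.92, from the fit of all probe sets, was not called. The normalized means of 3.34 preshocked and 4.39 unheated lay below 5.65 log2, the lowest mean of any gene tested. The signal may be background, so it does not show whether Hspa1a responded. Because both genes share most of their coding sequence, the Hspa1b probe sets may also read Hspa1a transcripts. In the KO-labelled arrays Hspa1b rose too, by 6.81 ± 0.37, so its level does not check the labels, and where the deletion lies in relation to the probes is not known from the labels.

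Partners of Hsp70 rose with it. Dnajb1, the main J-domain partner of Hsp70 in the cytosol, read 29034 and 18969 after preshock and 3261 and 2521 without it, a change of 2.87 ± 0.20 log2 (adjusted p = 0.00185). Dnajb4, a close relative of Dnajb1, went to 6644 and 5341 from 1100 and 1065 (2.44 ± 0.19, adjusted p = 0.00253). Neither gene had overlapping groups, and the pairs gave 2.83 and 2.91 for Dnajb1 and 2.49 and 2.39 for Dnajb4. Of the 3 Dnajb4 probe sets another rose by 2.60 ± 0.47. The remaining one, dim with readings of 35.2 to 41.0, went the other way, at -0.08 ± 0.70. Hsph1, the Hsp110 nucleotide exchange factor, read 26241 and 24910 against 5621 and 4911 (2.09 ± 0.24, adjusted p = 0.0138). Bag3, a BAG protein that links Hsp70 to selective autophagy, read 4078 and 4052 against 1288 and 1285 (1.67 ± 0.20, adjusted p = 0.0164). The readings of Bag3 within a group differed by less than those of any of the other chaperone genes named here.

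Few members of each chaperone list passed the test. In the Hsp70 and Hsp110 family 2 of 12 tested members were called, Hspa1b and Hsph1, and the median change was 0.11 against -0.03 for all genes. Among J-domain cochaperones 2 of 23 were called, with a median of 0.01 and 11 members below 0. The block added Dnajb9, an ER member (1.43 ± 0.33, adjusted p = 0.165 without it and 0.0458 with it). In the BAG and exchange factor list 1 of 12 was called. Dnaja4, a further J-domain gene, changed by 3.45 ± 0.68, from 105 and 156 to 1598 and 1454. That was not called (adjusted p = 0.104), and the gene was picked after its values were seen. Constitutive chaperones gave high readings without heat. Hspa8, the constitutive Hsp70, read 45422 and 36053 after preshock and 42710 and 27265 without (0.17 ± 0.17). Readings of the groups overlapped there. Hsp90aa1, Hspd1, Hspe1 and Hspa5 changed by 0.22, 0.14, 0.27 and 0.05 log2, none of them called.

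Small heat shock proteins, which bind unfolded chains without ATP, had 0 of 5 tested members called, 3 with an unadjusted p under 0.05, and a median of 0.72. Hspb8, the partner of Bag3, read 5157 and 5577 against 2020 and 2713 (1.16 ± 0.19, adjusted p = 0.0556), and with the block it was called (adjusted p = 0.036). Hspb1 read 35466 and 28104 against 7545 and 9355 (1.69 ± 0.31, adjusted p = 0.0813), and Cryab changed by 0.72 ± 0.20 (adjusted p = 0.274). The groups of Hspb8 and Hspb1 did not overlap. Hsp90 and its cochaperones had 0 of 15 called (1 at unadjusted p under 0.05), with Ahsa1, the activator of the Hsp90 ATPase, at 0.45 ± 0.16. Chaperonins and mitochondrial chaperones had 0 of 16 called (0 at unadjusted p under 0.05). Of the heat shock factors Hsf2 had the smallest p, at 0.72 ± 0.39, and 0 of 2 tested were called.

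**Figure D3:**
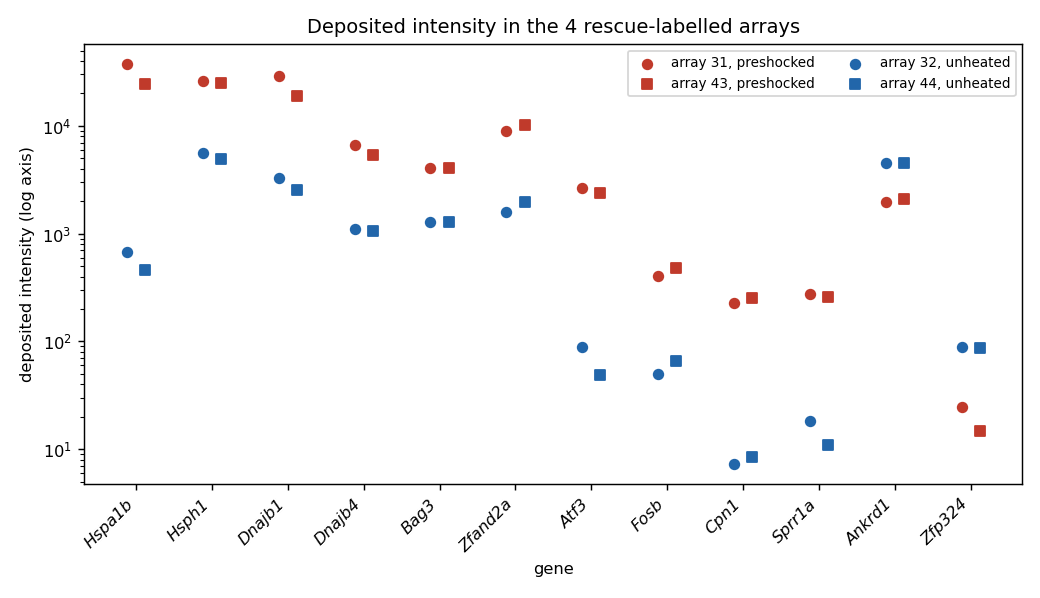
Deposited intensity (log axis) of 12 called genes in the 4 rescue-labelled arrays. Red symbols are preshocked arrays 31 (circles) and 43 (squares), blue symbols unheated arrays 32 (circles) and 44 (squares). Hspa1b goes from 465 and 675 to 24677 and 37506, and Cpn1 from 7.30 and 8.39 to 227 and 252, while Ankrd1 and Zfp324 are lower after preshock.

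Genes of protein disposal gave 1 call in 16. Zfand2a, also known as AIRAP, encodes a zinc finger protein that associates with the proteasome under stress. It read 8930 and 10291 after preshock and 1602 and 1981 without it, a change of 2.35 ± 0.20 (adjusted p = 0.00253). Pair 31/32 gave 2.34 and pair 43/44 gave 2.36. The subunits of the proteasome itself had 0 of 34 called (0 at unadjusted p under 0.05), with all changes between -0.05 and 0.24 log2 and a median of 0.03. Psmd8, with the smallest p, stood at 0.21 ± 0.22.

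Promoter sequences of the called genes were set beside these changes to show which hold the binding sequence of HSF1 or AP-1. Of the 39 genes 30 were matched by symbol in the RefSeq promoter table of GRCm38.p6, which gives 250 bases before to 50 after each start (26 of the 30 higher and 4 of the 9 lower genes). A pair of heat shock units (GAANNTTC or TTCNNGAA) was in the promoter of 7 of the 26 higher genes, or 26.9%, against 13.7% of the 8911 tested genes with a promoter. By window, of which a gene can have several, the shares were 21.6% for the higher genes and 15.1% for the whole promoter table. A run of 3 alternating units with the same spacing, which contains the shorter motif, was in 1 of the 26 (3.85%), Hsph1, against 0.55% of tested genes (by window 5.41% against 0.603% of the whole table). In Hsph1 this run lay after the start, at offsets of 36 and 15 in its windows. All motifs were searched on both strands. The stretches below run 5′ to 3′ on the strand of the gene and end before a transcript start. For Hsph1 and Dnajb4 that start lies inside the gene, downstream of its outermost start. The capitals mark the match to a pair of units.

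Hspa1b, chr17:34959310-34959367, minus strand: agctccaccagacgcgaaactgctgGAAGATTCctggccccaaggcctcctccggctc
Hsph1, chr5:149636337-149636394, minus strand: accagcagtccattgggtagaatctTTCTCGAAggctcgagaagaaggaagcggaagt
Dnajb4, chr3:152193846-152193884, minus strand: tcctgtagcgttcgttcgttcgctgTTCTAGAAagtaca
Zfand2a, chr5:139484655-139484712, minus strand: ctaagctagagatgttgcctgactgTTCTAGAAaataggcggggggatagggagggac
Cdkn1a, chr17:29090898-29090955, plus strand: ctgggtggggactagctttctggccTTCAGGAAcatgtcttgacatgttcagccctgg
Ankrd1, chr19:36119930-36119987, minus strand: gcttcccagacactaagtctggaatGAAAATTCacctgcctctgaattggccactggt

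Zfand2a and Dnajb4 held the same 8 letters, and the Hspa1a promoter had the same 58 letters as the stretch of Hspa1b shown. The matches began at offsets from the start of -104 (Hspa1b), -33 (Hsph1, shorter transcript), -14 (Dnajb4, shorter transcript), -196 (Zfand2a) and -56 (Cdkn1a). Bag3 and Ifitm10 held the pair of units as well, in Bag3 after the start. Ankrd1, which fell, also held a match, at -118. The AP-1 sequence TGANTCA was in 4 of the 26 higher genes (15.4%, against 6.12% of tested genes), Sprr1a, Mmp13, Bag3 and Ifitm10. By window the shares were 13.5% for the higher genes, 5.11% for tested genes and 7.81% for the whole promoter table. Sprr1a, Mmp13 and Ifitm10 passed the filter on dim genes only through the preshocked arrays, so they had to be high there to be tested. With no filter Sprr1a and Mmp13 were not called (limma adjusted p = 0.0593 and 0.132). Of these stretches 3 are shown with the match in capitals. The sequence TGACGTCA, bound by CREB and ATF factors, was in Maff and Zfand2a (7.69%, against 3.76% of tested genes). Its shares by window were 5.41% for the higher genes, 3.15% for tested genes and 1.79% for the whole promoter table.

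Sprr1a, chr3:92485966-92486052, minus strand: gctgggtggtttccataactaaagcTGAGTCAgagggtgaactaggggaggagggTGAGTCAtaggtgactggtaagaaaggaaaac
Mmp13, chr9:7272454-7272510, plus strand: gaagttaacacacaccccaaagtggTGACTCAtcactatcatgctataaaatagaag
Bag3, chr7:128523538-128523582, plus strand: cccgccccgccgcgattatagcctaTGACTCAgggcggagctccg

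Transcription factors rose as well. Atf3, a repressor of the ATF and CREB family, read 2635 and 2358 after preshock and 88.0 and 48.4 without it. That was the second largest rise, 4.98 ± 0.41 log2 (adjusted p = 0.00253), with 4.64 in pair 31/32 and 5.31 in pair 43/44. Fosb, an AP-1 subunit, went to 407 and 478 from 50.2 and 65.2 (2.73 ± 0.40, adjusted p = 0.0327). Maff, a small Maf protein without an activation domain, went to 1075 and 1292 from 401 and 431 (1.56 ± 0.24, adjusted p = 0.0454). Readings within each group lay close together for Fosb and Maff, but both calls ended with the block, at adjusted p of 0.0629 and 0.0632. Over all alternatives the adjusted p ranged from 0.00396 to 0.229 for Fosb and from 0.0108 to 0.353 for Maff.

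In the AP-1 and small Maf list 3 of 13 members were called, all higher, and the median was 0.67. With the block Atf3 and Mafk were called, Mafk at 1.03 ± 0.30 (adjusted p = 0.288 without the block and 0.0483 with it). Of the 13 members 8 were higher in both pairs and 5 lower in both, against 28.8% and 38.9% of all genes tested. Jun was on the lower side at -0.54 ± 0.31, and Junb on the higher at 1.47 ± 0.33 (adjusted p = 0.161). Fos, the textbook immediate early gene, stood at 1.15 ± 0.55, with 557 and 263 after preshock and 163 and 186 without. Its preshocked arrays were thus well apart, and the lower of them was not far above the unheated ones. The wider list of EGR, KLF and other immediate early genes had 0 of 30 called but 12 higher and 4 lower at unadjusted p under 0.05, with a median of 0.33. Ier3 had its smallest p (0.90 ± 0.15, adjusted p = 0.0672), and with the block Ier3 and Nr4a2 were called (0.0372 and 0.0245). Egr1 read 7186 and 4683 against 1898 and 2018 (1.52 ± 0.47, adjusted p = 0.329). Klf2, named after its values were seen, stood at -1.31 ± 0.23 (adjusted p = 0.0702).

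Sox9 and Zglp1 were the calls among 27 further transcription factors, listed with SOX, HES and ID genes. Sox9, the master regulator of cartilage cells, read 1445 and 1441 after preshock against 383 and 218 (2.32 ± 0.31, adjusted p = 0.023). Its preshocked arrays were nearly equal, and the pair changes of 1.93 and 2.71 differed through the unheated arrays. Another bright probe set of Sox9 rose by 2.15 ± 0.41, while a dim one, with readings of 5.34 to 20.6, stood at 0.07 ± 1.18. Zglp1, a GATA-like factor of germ cells, read 154 and 155 against 10 and 17 (3.39 ± 0.50, adjusted p = 0.0352). It passed the filter on dim genes only through the preshocked arrays. The call ended with no filter (adjusted p = 0.132) and with the block (0.0581), with 0.0108 to 0.247 over all alternatives.

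Rgs2, Dusp4 and Socs3, which encode inhibitors of different signalling pathways, also rose. Rgs2, which shortens the signal of Gq-coupled receptors, read 768 and 697 after preshock and 127 and 158 without (2.31 ± 0.31, adjusted p = 0.023). Dusp4, a nuclear phosphatase that turns off MAP kinases, read 1937 and 1980 against 497 and 535 (1.96 ± 0.19, adjusted p = 0.00653), with pair changes of 1.95 and 1.96. Socs3, a feedback inhibitor of JAK-STAT signalling, read 1215 and 991 against 403 and 323 (1.65 ± 0.20, adjusted p = 0.0164). None of these genes had overlapping groups. Dusp4 was the 1 call among 16 feedback inhibitors of MAP kinase signalling, whose median was 0.44. Of these 11 were higher in both pairs and 4 lower in both, against 28.8% and 38.9% of all genes tested. Socs3 was the 1 call among 21 genes of NF-kB feedback, cytokines and chemokines, with a median of 0.03, and the block added Csf1 as lower (-1.08 ± 0.33, adjusted p = 0.317 without it and 0.0466 with it).

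Cdkn1a, the p21 inhibitor of cyclin-dependent kinases, rose after preshock. It read 1501 and 2111 against 506 and 660 (1.66 ± 0.25, adjusted p = 0.0353). It was the 1 call among 17 p53 target and Gadd45 genes (median 0.17), and it ended with the block (adjusted p = 0.0532, with 0.0107 to 0.327 over all alternatives). The lists of cell cycle phases gave 0 calls in 29 G2 and M phase genes (4 higher at unadjusted p under 0.05) and 0 in 33 G1 to S genes (2 higher). Ccnf and Orc1 had the smallest p of these lists, at 0.65 ± 0.19 and 0.75 ± 0.19. Slc30a1, the zinc exporter of the plasma membrane, rose by 1.45 ± 0.19 (adjusted p = 0.023), from 395 and 436 to 1017 and 1169, as the 1 call among 6 metal response genes. Its other, dimmer probe set stood at 0.56 ± 0.51. Mt1, the metallothionein measured there, stood at 0.30 ± 0.26.

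Several rises were of genes that other tissues are known for. Cpn1, the catalytic subunit of the plasma enzyme carboxypeptidase N, read 227 and 252 after preshock and 7.30 and 8.39 without it. This change of 4.74 ± 0.25 log2 had the smallest adjusted p of all genes (3.09e-04), and both of its probe sets rose, by 4.69 and 4.74. Cpn1 was also the 1 gene called in every alternative that tested it (14 of 14). Sprr1a, a precursor of the cornified envelope of skin, read 274 and 256 against 18.4 and 10.8 (4.07 ± 0.45, adjusted p = 0.0125). Ifitm10, a member of the interferon-induced transmembrane family, read 62.3 and 83.8 against 15.3 and 15.5 (2.19 ± 0.19, adjusted p = 0.00324). Mmp13, a collagenase, read 77.6 and 105 against 22.8 and 27.6 (1.74 ± 0.25, adjusted p = 0.0307). The unheated means of these 4 genes were below 5.65, the lowest mean log2 value of any gene tested. They passed that filter only through the preshocked arrays, where they are high, so they had to differ to be tested, and their folds start from signals that may be background. With no filter Cpn1 and Ifitm10 were called (adjusted p = 0.00449 and 0.0286), while Sprr1a and Mmp13 were not (0.0593 and 0.132). Over all alternatives the adjusted p ranged from 5.86e-05 to 0.0259 for Cpn1, 0.00565 to 0.122 for Ifitm10, 0.000973 to 0.136 for Sprr1a and 0.0122 to 0.228 for Mmp13. Lor, a cornified envelope gene beside Sprr1a in its list, stood at 2.90 ± 0.66, from 107 and 156 to 932 and 1148 (adjusted p = 0.161), while the list's median was -0.09 over 6 genes. Epithelial markers summed to 312 and 284 in preshocked and 342 and 273 in unheated arrays, and their 3 tested members, all dim, had a median change of 0.54 log2 with 2 above 0 and 0 called (Krt8 at 0.64 ± 1.04). Their part in the Sprr1a result was not tested.

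Pgf, placental growth factor, a ligand of the VEGF family, read 2651 and 3531 after preshock and 631 and 770 without, a change of 2.15 ± 0.33 (adjusted p = 0.0428). It was the 1 call among 21 growth factor ligands, with a list median of 0.25 and 7 higher at unadjusted p under 0.05. Its call ended with the block (adjusted p = 0.0533, with 0.00671 to 0.266 over all alternatives), which instead called Vegfa, Bdnf and Ereg, at 1.41 ± 0.25, 1.38 ± 0.24 and 0.76 ± 0.25 log2. Vegfa read 1230 and 1370 against 498 and 510. Swt1, related to a yeast RNA endonuclease of nuclear quality control, read 2195 and 1789 against 548 and 403 (2.11 ± 0.22, adjusted p = 0.0103). Rnf225, Ccng2, Fam189b, L3mbtl3, Resf1, Fhdc1, Ccdc117 and Siah2 were the other rises, between 1.08 (Siah2) and 2.07 (Rnf225) log2. L3mbtl3 ended with the block (adjusted p = 0.0511, with 0.00849 to 0.545 over all alternatives).

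Preshock lowered 9 genes, by 1.12 (Ttc30b) to 2.08 (Zfp324) on the log2 scale, and they were spread over several lists. Zfp324, a KRAB zinc finger gene, fell most. It read 24.6 and 14.8 after preshock and 88.8 and 86.1 without, a change of -2.08 ± 0.29 (adjusted p = 0.0248). It passed the filter on dim genes only through the unheated arrays, and with no filter it was not called (adjusted p = 0.119, with 0.012 to 0.187 over all alternatives). Ankrd1, a target of YAP and of serum response factor, was the brightest gene to fall. It read 1961 and 2082 against 4539 and 4536 (-1.18 ± 0.15, adjusted p = 0.023), and both pairs gave -1.18. Xkr8, a scramblase that exposes phosphatidylserine in apoptosis, read 74.8 and 99.0 against 256 and 290 (-1.41 ± 0.16, adjusted p = 0.0138). Trim65, a ubiquitin ligase, read 63.2 and 62.5 against 186 and 186 (-1.32 ± 0.14, adjusted p = 0.00893). The arrays of a group were almost equal for Ankrd1 and Trim65.

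Other falls touched the nucleus and organelles. Tada1, a subunit of the SAGA acetyltransferase complex, read 326 and 366 against 871 and 880 (-1.20 ± 0.16, adjusted p = 0.023). Pex26, which anchors the peroxisomal import machinery, read 69.9 and 62.0 against 163 and 206 (-1.24 ± 0.19, adjusted p = 0.0454). Among ciliary genes Ttc30b, a subunit of intraflagellar transport, read 69.1 and 66.5 against 171 and 172 (-1.12 ± 0.15, adjusted p = 0.023). Kif24, a kinesin that restrains cilium assembly, read 86.5 and 78.1 against 208 and 286 (-1.31 ± 0.19, adjusted p = 0.0312). These last genes act in opposite ways on the cilium. The Kif24 call ended with the block (adjusted p = 0.0533, with 0.0265 to 0.974 over all alternatives), and its probe sets ranged from -1.31 to -0.23. The uncharacterized gene 9130023H24Rik stood at -1.32 ± 0.20 (adjusted p = 0.0454).

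Few members of the lists that hold these falls were called, and the medians stand beside -0.03 and 55.5% below 0 for all genes. In the cilium list 2 of 35 were called lower, 25 lay below 0 and the median was -0.08. With the block Kif24 lost its call and Cep290 gained one (-0.73 ± 0.26, adjusted p = 0.414 without the block and 0.0425 with it). Peroxisome genes had 1 of 15 called and a median of -0.19. SAGA, Mediator and acetyltransferase genes had 1 of 26 called and a median of -0.08. Actin, SRF and YAP target genes had 1 of 25 called, Ankrd1, and a median of -0.04, and the block added Tgfb1i1 (-0.84 ± 0.21, adjusted p = 0.202 without it and 0.0425 with it), with Ccn1 and Ccn2, the best known YAP targets, at -1.35 ± 0.45 and -0.55 ± 0.21 (not called). The 249 tested zinc finger genes with a number after Zfp, most of them transcriptional repressors of the KRAB class, had 1 call, but 178 of them (71.5%) lay below 0, against 55.5% of all genes. Their median was -0.29 log2, and 148 of the 249 were lower in both pairs, as were 38.9% of all genes tested. Among the 40% brightest genes their median was -0.07, and it was -0.18 without array 43 and -0.13 without array 32. In KO-labelled arrays it was -0.26. With the block 4 fell and 1 rose.

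**Figure D4:**
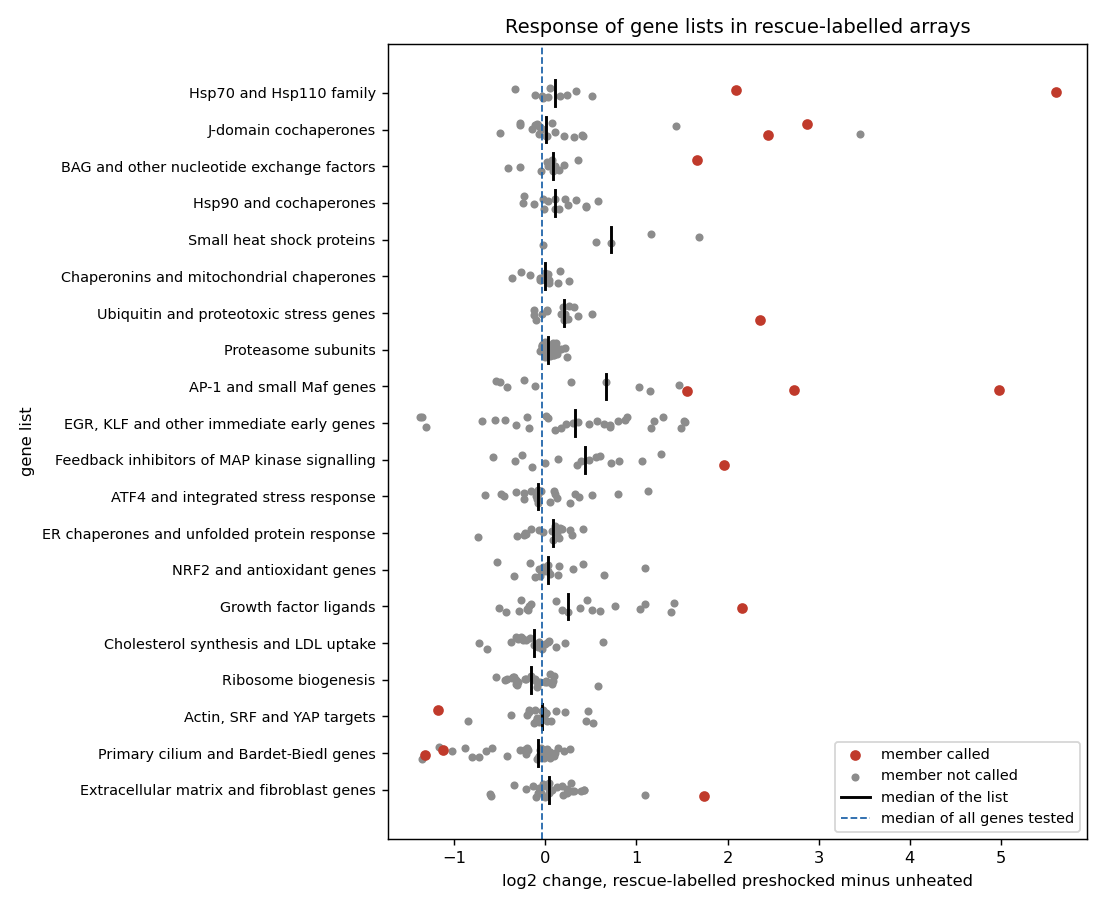
Log2 change of the tested members of gene lists (rows) in the rescue-labelled arrays. Red points are called members, grey points members not called, black bars the list median, and the blue dashed line the median of all genes tested (-0.03). The Hsp70 and J-domain lists hold 2 called members each far to the right with medians of 0.11 and 0.01. The numbered Zfp genes are not shown.

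Other stress and metabolic programmes had no called members. The list of ATF4 and the integrated stress response had 0 of 23 called (2 higher and 1 lower at unadjusted p under 0.05), with Atf4 at -0.45 ± 0.18 and Ppp1r15a, the phosphatase subunit that restores translation, at 1.13 ± 0.27. ER chaperones and unfolded protein response genes had 0 of 19 called (1 lower at unadjusted p under 0.05), with Herpud1 at -0.74 ± 0.30. NRF2 and antioxidant genes had 0 of 17 (1 higher and 1 lower), with Gclc, the enzyme of glutathione synthesis, at -0.53 ± 0.17. Hmox1, heme oxygenase, read 1100 and 3139 after preshock and 504 and 1571 without (1.09 ± 0.80), so that each preshocked array was higher than its own pair member but the groups overlapped. Apoptosis regulators had 0 of 24 (4 each way), with Dedd2 at 1.73 ± 0.30 (adjusted p = 0.0644). With the block Bid fell (-1.15 ± 0.26, adjusted p = 0.0425).

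Cholesterol synthesis and LDL uptake genes had 0 of 21 called, 2 lower at unadjusted p under 0.05 and 16 below 0, with a median of -0.12. Sqle, squalene epoxidase, stood at -0.73 ± 0.17 and was called with the block (adjusted p = 0.0382). Ribosome biogenesis had 0 of 25 called (1 each way at unadjusted p under 0.05) and a median of -0.15. Of its members 16 were lower in both pairs, as were 38.9% of all genes tested. Ubtf, the ribosomal RNA gene factor, went the other way, at 0.58 ± 0.17. Core clock genes had 0 of 16 called (3 higher at unadjusted p under 0.05) and a median of 0.28, led by the repressor Bhlhe40, which read 2411 and 1966 against 744 and 615 (1.72 ± 0.28, adjusted p = 0.0556). Splicing kinases and cold-inducible RNA binders had 0 of 18 called (2 higher and 3 lower), though the block called Clk1 and Dyrk1a higher and Clk2 and Srsf5 lower. Interferon-stimulated genes had 0 of 11 (1 lower), with Ifit2 at -0.69 ± 0.17, glycolysis and hypoxia genes 0 of 18 (1 higher and 2 lower), with Hk2 at -0.72 ± 0.24, and histone genes 0 of 9 (0 at unadjusted p under 0.05).

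Beside Dnaja4, another 4 genes differed by at least 3 log2 without a call, and they too were picked after their values were seen. P2rx7, an ATP-gated ion channel, changed by 5.32 ± 1.10 (adjusted p = 0.113), with 6.77 in pair 31/32 and 3.87 in pair 43/44. Mansc1 changed by 5.09 ± 1.05 (adjusted p = 0.113), with 2.96 and 7.22 in the pairs. Fpr2, a receptor for formylated peptides, changed by 3.49 ± 1.02, and Cuzd1 by 3.27 ± 0.96. In each of the 4 the groups did not overlap, but the pairs lay far apart, and an unheated array read only 5.75 for P2rx7, 1.63 for Mansc1 and 3.76 for Cuzd1.

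The KO-labelled line was set beside these genes to see where the rescue-labelled response differed. All 39 genes changed in the same direction there, each with an unadjusted p under 0.05. The tests of the lines share the estimate of spread of each gene, so these p-values are not independent of the calls. Called in both lines were 36 genes, which are 92.3% of the 39 and 18.7% of the 193 called in KO-labelled arrays (1.77% of genes tested). The 3 called in rescue-labelled arrays alone were Zglp1, Ankrd1 and Kif24. The KO-labelled groups had 3 arrays each and the rescue-labelled groups 2, and a call in one line and not in the other does not show a difference. The difference itself was called for 0 of 10915 genes (0%; 103 at unadjusted p under 0.05). It had an unadjusted p under 0.05 for 5 of the 39, against 103 of the 10915 genes tested. The 39 were picked on rescue-labelled values and on a spread that the test of the difference reuses. The 5, their intervals below and the 27 that changed more in rescue-labelled arrays are therefore a description.

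Zglp1 differed most among these 5 genes, with 3.39 against 1.49 log2, a difference of 1.91 and a 95% interval of 0.43 to 3.38. Ifitm10 rose by 2.19 against 1.38 (difference 0.81, interval 0.24 to 1.38), with unheated readings of 15.3 and 15.5 against 74.3 to 138. Both genes passed the filter on dim genes only through preshocked arrays, and their rescue-labelled folds start from signals that may be background. Ankrd1 fell by 1.18 on the log2 scale, while the KO-labelled value was -0.53 and not called (difference -0.65, interval -1.10 to -0.19). For Kif24 the values were -1.31 and -0.62 (difference -0.70, interval -1.26 to -0.14). Ttc30b fell less in rescue-labelled arrays, with -1.12 against -1.79 (difference 0.67, interval 0.23 to 1.11). Each of these differences had an adjusted p of 1 in limma. Hspa1b rose less in rescue-labelled arrays by -1.21, with an interval of -2.56 to 0.14 that includes 0. For Cpn1 the interval was -0.76 to 0.69 and for Zfand2a -0.57 to 0.59, so differences of that size in either direction remain possible. For Pgf the values were 2.15 and 2.93 (difference -0.78, interval -1.75 to 0.19).

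**Figure D5:**
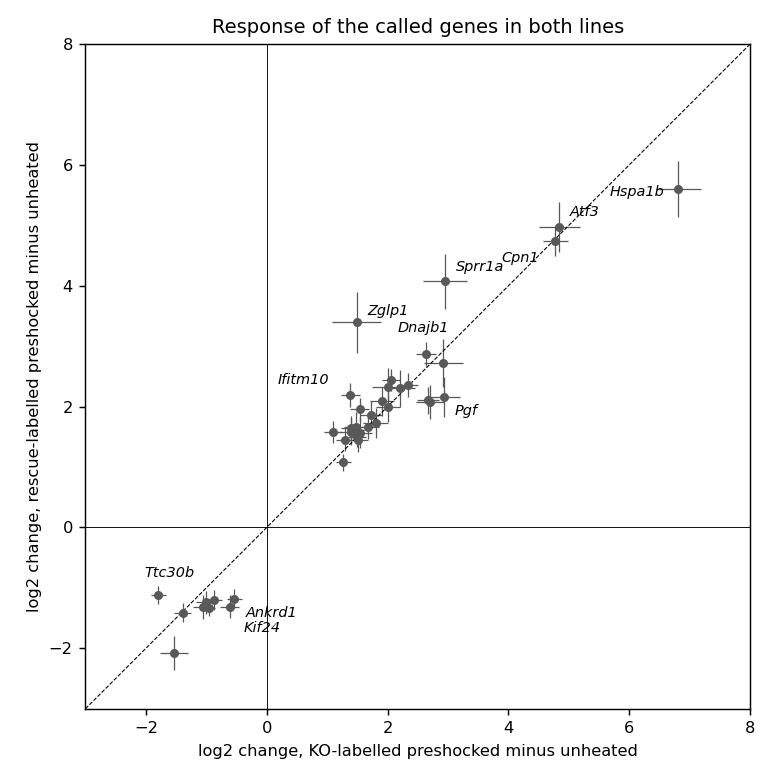
Log2 change of the 39 called genes in KO-labelled arrays (horizontal axis) and rescue-labelled arrays (vertical axis). Points are limma estimates, bars their standard errors and the dashed line equal change. All points lie on the same side of 0 on both axes, Hspa1b below the line (5.60 against 6.81) and Zglp1 above it (3.39 against 1.49).

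For the immediate early genes the estimates of some were larger in one line and of others in the other, and no difference was called. Atf3 stood at 4.98 in rescue-labelled and 4.84 in KO-labelled arrays (interval of the difference -1.08 to 1.34). Ier3 stood at 0.90 and 0.69 (interval -0.25 to 0.66). Fos stood at 1.15 in rescue-labelled and 2.78 in KO-labelled arrays (difference -1.62, interval -3.26 to 0.01), and Egr1 at 1.52 and 2.76 (difference -1.24, interval -2.63 to 0.15). Fos and Egr1 were picked after their values were seen, and both intervals include 0. The AP-1 and small Maf list had medians of 0.67 in rescue-labelled and 0.66 in KO-labelled arrays. The EGR and KLF list had a median of 0.33 in rescue-labelled and 0.61 in KO-labelled arrays, and 7 of its genes were called higher in KO-labelled arrays and 1 lower, against 0 in rescue-labelled arrays. The feedback inhibitors of MAP kinases had medians of 0.44 and 0.73. A difference with an unadjusted p under 0.05 was found for 2 of the 30 and 1 of the 16 genes, and for none of the 13 AP-1 genes.

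Over all 45037 probe sets, without a filter on dim ones, 11 were called (0.0244%), 10 higher and 1 lower. They were 3 of Hspa1b, 2 each of Cpn1 and Dnajb1, and 1 each of Atf3, Orly, Trav9d-3 and Bmp5. The last 3 of these probe sets were not used in the fit of genes, where brighter probe sets of Orly and Trav9d-3 stood at -0.09 and 0.69 log2 and Bmp5 was too dim to be tested. For 23 of the 39 called genes more than 1 probe set was on the arrays, and in 22 of these every probe set changed in the same direction, the exception being Dnajb4. Sizes could differ all the same. Siah2 changed by 1.08 on one probe set and 0.14 on another of similar unheated level, and Slc30a1 by 1.45 and 0.56. With the median of probe sets both lost their calls, Siah2 at 0.61 (adjusted p = 0.408) and Slc30a1 at 1.01 (0.325), where the ranges over all alternatives were 0.00764 to 0.786 and 0.006 to 0.405.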

How the data were processed

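Gene expression was measured in fibroblast lines on Affymetrix mouse arrays, 1 per sample. The intensity values are as deposited by the authors, on a linear scale with 1 value per probe set and array, and their trimmed means (2% at each end) were equal across arrays. The software that summarised the probe sets is a detail not given in the sources used here. Per the labels' protocols, the input to biotin labelling was 1.5 µg of total RNA.

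Values below 1 were set to 1 (4935 of them) and log2 transformed. Since array medians differed by up to 1.08 log2, more than the tolerance of 0.2, the 10 arrays were quantile normalized. Of 45101 probe sets 64 were controls and left out, 34945 had 1 gene symbol in the platform annotation, 932 several and 9160 none. The probe set with the highest mean stood for a gene (18193 genes), and the 60% with the highest means, 10915 genes, were tested. A limma model (version 3.58.1, R 4.3.3, statmod 1.5.0) with 4 group means and 6 residual degrees of freedom gave changes with standard errors, and 95% intervals for the difference between lines (rescue-labelled minus KO-labelled change). P-values got the Benjamini-Hochberg adjustment over all genes tested, and called means an adjusted p under 0.05. The fit was tested on simulated data with known changes. The number of arrays limits the precision.

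Preshocked and unheated arrays have consecutive numbers in the titles. Deviations from group means correlated within all 5 such pairs (0.721, 0.376, 0.552, 0.37 and 0.37; the last 2, of the rescue-labelled line, are equal by construction), so the pair block is given where it changes the call of a listed or named gene. Named genes are the 15 largest rises and 15 largest falls at most among called genes with non-overlapping groups, the others by symbol, up to 4 called members of each of 44 gene lists or else the member with the smallest p, the 5 smallest p of the difference between lines each way, and Hspa1a and Hspa1b. Textbook genes outside this rule are given for context, and named after their values were seen. The members and lists were chosen with earlier results of these data known, so none is independent support. Alternatives changed the scaling, the floor, the filter, the probe set rule, the variance model, the arrays in the fit and the block. Promoters were taken from RefSeq (GRCm38.p6) and matched by symbol.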

Additional observations from a re-analysis of the deposited data

Results flagged for a closer look

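The genes below moved up in both rescue-labelled pairs and down in all 3 KO-labelled pairs. Each difference was tested in limma and missed the threshold after adjustment over 10915 genes (adjusted p = 1 for each). Slc40a1, the iron exporter ferroportin, changed by 0.84 ± 0.28 log2 in rescue-labelled and -0.94 ± 0.23 in KO-labelled arrays, a difference of 1.78 (95% interval 0.96 to 2.60, unadjusted p = 9.33e-04 in limma, the smallest of all genes). It read 130 and 166 in preshocked and 57.8 and 110 in unheated rescue-labelled arrays, so the groups did not overlap. Gm17753 differed by 2.20 (with the pair block its own rise of 1.26 was called, adjusted p = 0.0483, against 0.326 without), Zfp787 by 1.64, Mmrn2 by 1.39 and 2810403D21Rik by 1.28. Gm17753 read 35.9 and 42.5 in preshocked and 11.7 and 22.0 in unheated rescue-labelled arrays, signals that may be background. Both means were below 5.65 log2, the lowest mean of any gene tested, so only the KO-labelled arrays carried Gm17753 through the filter on dim genes. Zfp787 turned to -0.58 in the rescue-labelled arrays when the median of its probe sets was used. The directions were opposite in the lines, and the genes had been picked for the size of that difference.

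On the other side Serhl (-1.0 against 0.60), Gm29538 (-1.63 against 0.05, its fall called with the block at adjusted p = 0.0425, against 0.165 without), A530047J11Rik (-0.92 against 0.07), Sel1l3 (0.14 against 1.48) and Errfi1 (0.00 against 0.71) had the smallest p of the difference. Errfi1, a feedback inhibitor of the EGF receptor, read 7059 and 5674 in preshocked and 6383 and 5740 in unheated rescue-labelled arrays, which overlapped. Its difference of -0.71 had an interval of -1.21 to -0.21.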

How the results depend on the processing

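With 15 alternatives, the count of 30 higher and 9 lower genes became 7 and 0 with medians centred, 34 and 11 with the deposited scaling, 33 and 10 with a floor of 32, 1 and 0 with the 4 rescue-labelled arrays fitted alone (also when normalized alone), 59 and 19 without the KO-labelled pair 5/6, 9 and 1 with no filter, 46 and 12 with the 40% brightest genes, 19 and 2 with the median of probe sets, 48 and 8 with trend and robust variance, and 80 and 84 with the pair as a replicate block. The genes were partly others. Of the 9 lower genes 2 were among those lower with the deposited scaling, 9 with the floor of 32, 8 without pair 5/6, 2 with the 40% brightest, 3 with trend and robust variance and 8 with the block, and of the 30 higher genes 28, 29, 30, 22, 29 and 24. Leaving out 1 array gave 7 to 11 higher, 0 to 6 lower and 0 to 1 for the difference between lines. A lone array was then assumed to vary like the other groups. The difference had 0 calls otherwise, but 1 with no filter. Rises made up 100% of calls with medians centred, 90% with no filter and 90.5% with the median of probe sets, against 76.9%. The block changed the calls named above. Changes that turned sign were those of Errfi1 (0.0763 with medians centred, 0.0643 with the deposited scaling, 0.122 with the median of probe sets and -0.095 to 0.0915 without 1 array), Hsf2 (-0.0540), Syp (0.0834) and Zfp787 (-0.581) with the median of probe sets, and Sel1l3 (-0.143 to 0.414) and Psmd8 (-0.0391 to 0.463) without 1 array. The cause was not tested. The other values were changes of named genes and the member counts and medians of the gene lists. Of these, 1877 stayed the same, 308 gene changes lost a call, 16 gained one and 192 list values moved. For a gene the same means the direction and side of the threshold, and for a list a count or median close to the main one. Signal over background is unknown, and genes near the floor have uncertain folds.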

Other observations

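The extracellular matrix and fibroblast list had 1 of 29 members called, Mmp13, with a median of 0.05 log2 against -0.03 for all genes. Of its members 15 were higher in both pairs, as were 28.8% of all genes tested. The changes of the list ran from -0.60 to 1.74 log2.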
